A study of Mus musculus with 15 samples.

Results

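The genes of the cytosolic ribosomal proteins were followed in the ipsilateral basal ganglia of mice on day 3 after intracerebral haemorrhage (ICH), a bleed into the brain tissue. Members were genes whose symbol names a protein of the small (Rps) or large (Rpl, Rplp) cytosolic subunit and whose mean over the 15 libraries was at least 1 CPM (counts scaled to the library total). Of 54532 genes in the table, 89 had such a symbol and 82 passed the minimum, 34 of the small and 48 of the large subunit. All 82 were among the 18052 genes with enough counts to be tested. The members were thus chosen by their symbol and selected on this mean level, in which the groups were not told apart. Just inside it were Rps3a2 at 1.90 CPM and Rps10 at 2.30 CPM, and just outside were Rps3a3 at 0.757 CPM and Rpl24 at 0.755 CPM. Below these lay Rpl3l at 0.471 CPM, Rpl39l at 0.180 CPM and Rpl32l at 0.0708 CPM, while Rps12l1 and Rpl10l had no count. The annotation gives 79 members as protein coding and lists Rps3a2, Rpl6l and Rps4l as pseudogenes.

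Each of the 15 libraries was made from poly-A RNA of a single wild-type (WT) mouse, with 5 mice per group. NYKD mice had ICH and were given Nao Yi Kang decoction, a herbal mixture, by oral gavage at 5.79 g/kg once a day for 3 days. ICH mice had the haemorrhage and sham mice the control surgery, and both of these groups were gavaged with distilled water. All mice were perfused with saline before the ipsilateral basal ganglia were taken. The labels used here do not give the strain, age or sex of the mice, nor how the haemorrhage was made. Libraries held 13539203 to 19909140 counts, and no pair of libraries was identical. Markers of the striatal projection neurons, the main neurons of the basal ganglia, had counts in every group, with a summed level of 129 to 1638 CPM in NYKD, 601 to 3721 CPM in ICH and 763 to 4759 CPM in sham libraries.

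A ribosome is built from rRNA and a fixed set of proteins, nearly all of which are needed in equal number, so their genes are usually expressed together in a cell. Their mRNAs begin with a terminal oligopyrimidine (TOP) tract, a C followed by further C and U letters at the cap. Through this tract the mTOR pathway and the RNA-binding protein Larp1 set how strongly the whole family is translated, which mRNA levels do not show. In the brain, ribosomal protein mRNAs are found in cell bodies and also in axons and dendrites. In bulk tissue, fewer cells of a type and less RNA per cell cannot be told apart, which holds for every level below.

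The start regions of some members are printed to show the pyrimidine runs at or near the annotated start of genes whose levels are described below, together with the Rps27 and Rps27l and the Rpl22 and Rpl22l1 paralog pairs. Each line gives 30 bases close to the annotated start, 5′ to 3′ on the strand of the gene, from RefSeq on GRCm38.p6. Capitals mark the longest run of C and T letters that starts with C.
Rps6: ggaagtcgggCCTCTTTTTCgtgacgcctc
Rps12: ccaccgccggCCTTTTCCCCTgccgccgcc
Rps27: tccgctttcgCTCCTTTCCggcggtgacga
Rps27l: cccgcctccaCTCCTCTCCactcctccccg
Rpl22: gcccgtctgaCTCCTCCCTTTCCCgacagc
Rpl22l1: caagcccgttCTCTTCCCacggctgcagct
Rpl7a: ccccacaattCCCTCTTCTTTCTTTCTCCa
Rplp2: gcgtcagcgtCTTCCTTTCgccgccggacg

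These windows lie at chr4:86857349-86857378 on the minus strand for Rps6, chr10:23787182-23787211 (minus) for Rps12 and chr3:90213631-90213660 (minus) for Rps27. For Rps27l the window is chr9:66946054-66946083, and for Rpl22 it is chr4:152325677-152325706, both on the plus strand. The Rpl22l1, Rpl7a and Rplp2 windows are chr3:28805501-28805530, chr2:26910785-26910814 and chr7:141447637-141447666, also on the plus strand. The run starts 1 base before the annotated start in Rps6 and 2 bases before it in Rps27 (positions -1 and -2), but 22 bases before it in Rps27l (-22) and 39 bases before it in Rpl22 (-39). In Rpl22l1 it starts 3 bases after the annotated start. The windows of Rps27l and Rpl22 lie wholly before the annotated start, so their capitals are runs in the promoter and not the first letters of the annotated mRNA.

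The RefSeq table had 70 start regions for 59 of the 82 members. A run of at least 8 letters, a C followed only by C or T on the strand of the gene, began within 50 bases of the annotated start in 56 of the 70 (80%), against 28.8% of all 32851 start regions in the table. The motif CCGGAAG, the core recognised by Ets-type factors, was present on either strand of the 300-base window from 250 bases before to 50 bases after the start in 37.1% of the member regions, against 8.86% of all. TATAAA was present in 10% of the member regions, against 13.6% of all. These are matches of letters and were not tested for use. Among the 6 members called below, Rps12 and Rps27l had such a run, Rplp0 and Rps4x had none of 8 letters, which says only that these letters are not there, and the table had no start region for Rpl17 and Rpl29.

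Levels of the family as a whole overlapped between the groups. Summed over the 82 members, the level was 14018, 14890, 14985, 12251 and 15436 TMM-scaled CPM in the 5 NYKD libraries. It was 12026, 20145, 16901, 14843 and 14556 CPM in ICH libraries, against 14866, 13107, 13032, 10253 and 17633 CPM in sham libraries. The means were 14316 ± 1264 CPM in NYKD, 15694 ± 3031 CPM in ICH and 13778 ± 2715 CPM in sham libraries (SD, n = 5 each), so the groups differed by less than the spread between mice of the ICH or the sham group. The NYKD libraries had the narrowest range of the 3 groups.

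Within the groups most members moved together from mouse to mouse. With the group means taken away, 70 of 82 correlated above 0.7 with the median of the other members. Among those that did not were Rps10 (0.03), Rpl7a (0.33), Rps27l (0.48) and Rpl17 (0.65). In ICH replicate 2, 82 of 82 members were above their own mean over all libraries, with a median deviation of 0.53 on the log2 scale. In sham replicate 4, 81 of 82 were below it, with a median deviation of -0.48. ICH replicate 1 (-0.23), NYKD replicate 4 (-0.20), ICH replicate 3 (0.27) and sham replicate 5 (0.22) also stood away from zero in their median. The share of all counts held by the members ran from 1.01% in sham replicate 4 to 2.14% in ICH replicate 2.

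**Figure D1:**
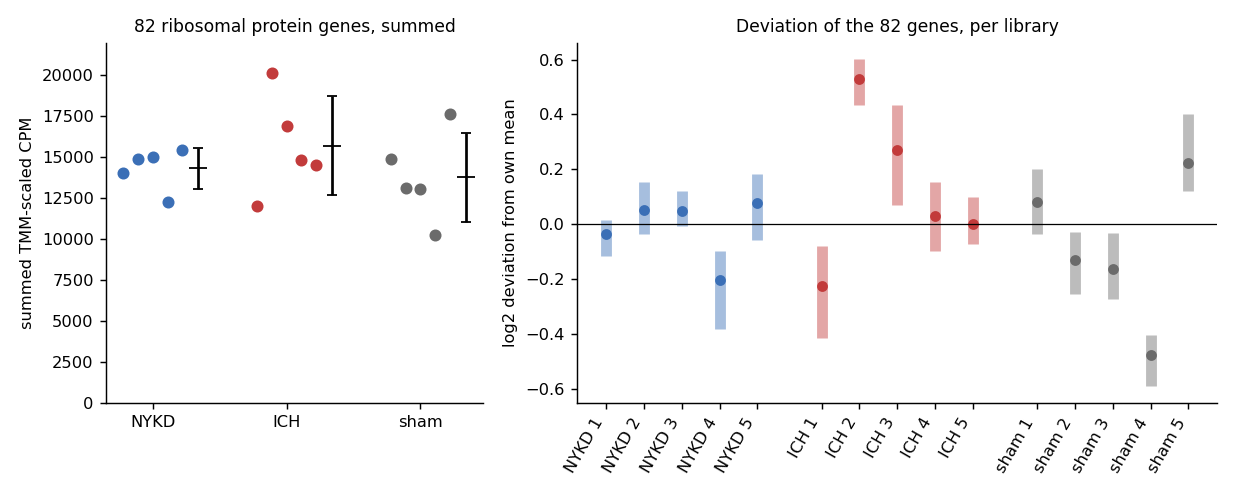
The left panel plots the summed TMM-scaled CPM of the 82 genes per library, with the mean and SD of each group as a black bar. The right panel plots, per library, the median (point) and interquartile range (bar) of the log2 deviation of the 82 genes from their own mean; the 3 groups overlap, ICH 2 is highest at 0.53 and sham 4 lowest at -0.48.

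The balance of the 2 subunits was steadier than the total. Summed small-subunit over summed large-subunit CPM was 0.732 ± 0.0069 in NYKD, 0.740 ± 0.026 in ICH and 0.730 ± 0.017 in sham libraries (SD, n = 5 each). The whole range over the 15 libraries was 0.711 to 0.776, and both ends of the range lay outside the NYKD group.

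Per gene, Rpsa, the small-subunit protein also known as the laminin receptor, had the highest mean at 587 CPM over all libraries. It was followed by the large-subunit proteins Rpl3 at 538 CPM and Rpl4 at 519 CPM. None of these 3 was called in any comparison. Rpsa had 594, 541, 576, 491 and 692 CPM in NYKD, 472, 851, 651, 517 and 548 CPM in ICH, and 589, 570.2, 575, 429.7 and 702 CPM in sham libraries. All 3 groups overlapped widely for this gene.

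The comparison of ICH with sham asks what the haemorrhage changed. A small set of ribosomal protein genes rose after ICH, and none fell. By the edgeR quasi-likelihood test, with p values adjusted over all 18052 genes, 6 of the 82 members were raised, where 12.4% of all genes tested were raised. None was lowered, where 4.58% of all genes were, and no member was called lowered by DESeq2 or limma-voom. The share of members raised was thus below that of all genes. Most members lay slightly above zero: 68 of 82 had a positive log2 fold change, with a median of 0.23, against a median of 0.05 for all genes, of which 54.0% were above zero. An unadjusted p under 0.05 was reached by 15 members (18.3%), against 31.1% of all genes. Of the small subunit 30 of 34 members were above zero and 3 were raised; of the large subunit 38 of 48 were above zero and 3 were raised.

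Rps27l, a paralog of Rps27 known as a p53 target, had the largest change. It lies at chr9:66946086-66949516 on the plus strand (GRCm38). Its levels were 23.3, 36.0, 41.7, 16.0 and 17.7 CPM in ICH libraries, against 18.9, 13.7, 15.5, 10.1 and 9.99 CPM in sham libraries. ICH replicates 4 and 5 lay inside the sham range, and the other ICH libraries above it. The log2 fold change was 0.98 ± 0.26 (SE), with an edgeR adjusted p of 0.0149. The adjusted p was 0.0553 if ICH replicate 3 was left out and 0.0533 if sham replicate 5 was.

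Rpl17, a protein at the mouth of the peptide exit tunnel (chr18:74998558-75003381, plus strand), had 64.8, 105, 115, 97.9 and 61.7 CPM in ICH libraries, against 65.0, 46.5, 57.3, 38.9 and 52.0 CPM in sham libraries. The ICH libraries 1 and 5 lay within the sham range. Its log2 fold change was 0.77 ± 0.21, with an edgeR adjusted p of 0.0161, and 0.0545 without ICH replicate 3. Most reads of this family of sequences were counted on its pseudogene copies, which bears on the value as described below.

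Rps4x, the X-linked small-subunit protein (chrX:102184941-102189394, minus strand), was among the 2 members whose groups did not overlap. It had 352, 412, 465, 366 and 344 CPM in ICH libraries, against 302, 258, 255, 225 and 338 CPM in sham libraries. Every ICH library was above every sham library, though the gap between 344 and 338 CPM was small. The log2 fold change was 0.49 ± 0.14, with an edgeR adjusted p of 0.0197. The call was lost without ICH replicate 3 and without sham replicates 2, 3 or 4, at adjusted p values of 0.0697, 0.0563, 0.0651 and 0.0587.

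Rpl29, a large-subunit protein that was also described as a heparin-binding protein (chr9:106429454-106431568, plus strand), was the other member without overlap. It had 84.5, 103, 108, 93.5 and 85.8 CPM in ICH libraries, against 72.3, 79.1, 68.1, 59.7 and 78.3 CPM in sham libraries. Its change of 0.41 ± 0.11 on the log2 scale was the smallest of those called (edgeR adjusted p of 0.0214). It was lost without ICH replicate 3 and without sham replicates 3 or 4 (0.0698, 0.0661 and 0.0616). All ICH libraries lay above all sham libraries for 8.03% of all genes, so 2 of 82 members was below the background. No member had all ICH libraries below all sham libraries, as 3.25% of all genes did.

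Rps12, a small-subunit protein of the beak (chr10:23785183-23787275, minus strand), had 65.4, 105, 105, 61.9 and 84.5 CPM in ICH libraries. Sham libraries had 61.8, 52.9, 54.6, 34.6 and 66.4 CPM, so ICH replicates 1 and 4 overlapped with the sham group. Its log2 fold change was 0.64 ± 0.19 (edgeR adjusted p of 0.0272), and the call was lost without ICH replicates 2 or 3 (0.0679 and 0.0860) and without sham replicates 2, 3 or 4 (0.0598, 0.0626 and 0.0661).

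Rplp0, the base of the ribosomal stalk and a common reference gene in PCR (chr5:115559467-115563727, plus strand), had 327, 425, 408, 339 and 346 CPM in ICH libraries. In sham libraries it had 261, 274, 225, 198 and 336 CPM. Sham replicate 5 lay above ICH replicate 1, and otherwise the groups were separate. The log2 fold change was 0.51 ± 0.16, with an edgeR adjusted p of 0.0401. This was the least stable of the 6 calls: it was lost in 10 of the 15 fits that left out a single library, at adjusted p values of 0.0526, 0.0542 and 0.0571 without NYKD replicates 1, 2 and 3, of 0.0872, 0.0999 and 0.0549 without ICH replicates 2, 3 and 5, and of 0.0652, 0.0674, 0.110 and 0.103 without sham replicates 1, 2, 3 and 4.

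All 6 calls were lost without ICH replicate 3, where Rpl7a alone was raised. Rpl17 and Rps27l alone were raised without sham replicate 3 or sham replicate 4, and these with Rpl29, 3 in all, without sham replicate 2. The median log2 fold change of the family fell to 0.11 on leaving out ICH replicate 2 and to 0.13 on leaving out sham replicate 4, the libraries at the ends of the family's range. When library sizes were scaled on the 82 members alone, a setting added after seeing the data that reads each gene against the others of the family, none of the 6 was called, and the lowest adjusted p was 0.0517, for Rps27l.

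Several members came close to the threshold without passing. Rpl10a, a protein of the L1 stalk, had a mean of 188 ± 22.7 CPM in ICH and 144 ± 24.3 CPM in sham libraries (log2 difference of 0.39 ± 0.13, edgeR adjusted p of 0.0587). Rpl39, a short protein that lines the exit tunnel, averaged 109 ± 34.3 CPM in ICH and 70.6 ± 22.2 CPM in sham libraries (0.63 ± 0.23, adjusted p of 0.0643). For Rpl7a (chr2:26910764-26913318, plus strand), ICH libraries had 39.7, 81.8, 25.9, 58.1 and 76.1 CPM and sham libraries 60.4, 22.5, 20.9, 20.2 and 23.5 CPM. Sham replicate 1 alone lay among the ICH values of Rpl7a, whose log2 fold change of 0.93 ± 0.36 had an adjusted p of 0.0859. It was raised without sham replicate 1 (1.37, adjusted p of 0.0066) and without ICH replicate 3 (1.10, adjusted p of 0.0483).

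Rps27, the canonical partner of Rps27l, had a similar pattern with a different library. It had 42.9, 112, 71.2, 77.4 and 64.0 CPM in ICH libraries, against 40.1, 32.6, 33.3, 24.5 and 139 CPM in sham libraries. The 4 other sham libraries were below all ICH libraries, and sham replicate 5 was above them all. Its log2 difference was 0.45 ± 0.42 (edgeR adjusted p of 0.504), and without sham replicate 5 it was 1.14 with an adjusted p of 0.0128.

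Other members with a known role outside the ribosome, or on its stalk, were not called. Rpl5, Rpl11 and Rpl23, which bind Mdm2 when ribosome assembly is disturbed, had log2 differences of 0.12 ± 0.17, 0.12 ± 0.22 and 0.32 ± 0.19 between ICH and sham. Rps6, the substrate of S6 kinase, had 239.9, 422, 364, 298 and 295 CPM in ICH and 343, 300.1, 284, 226 and 353 CPM in sham libraries, a log2 difference of 0.11 ± 0.16. The groups overlapped widely for Rps6. Rpl10, a late-joining protein of the large subunit, averaged 282 ± 61.3 CPM in ICH and 231 ± 47.4 CPM in sham libraries (0.29 ± 0.17). The acidic stalk proteins Rplp1 and Rplp2, which sit on Rplp0, had log2 differences of -0.02 ± 0.17 and 0.13 ± 0.20.

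**Figure D2:**
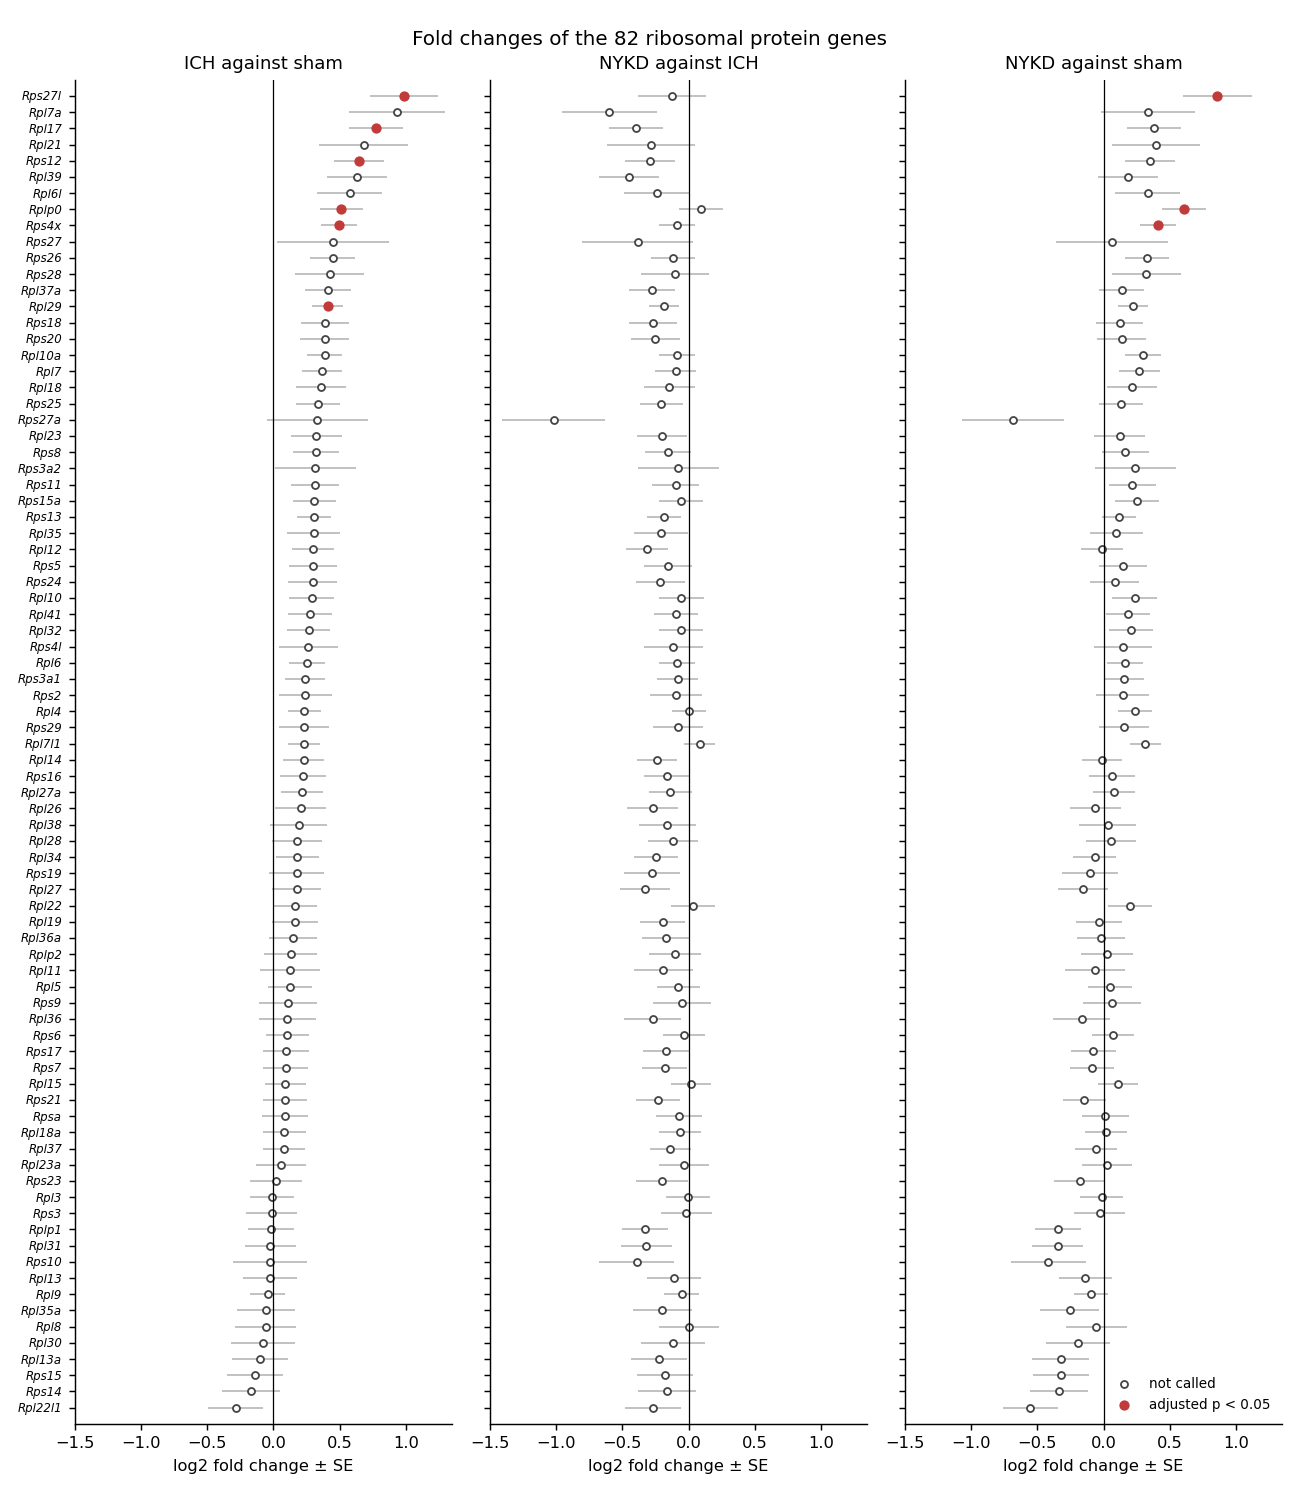
Log2 fold changes (horizontal axis, ± SE) of the 82 ribosomal protein genes, ordered by their change in ICH against sham, in the 3 comparisons; filled red points passed an edgeR adjusted p of 0.05. Raised genes number 6 in ICH against sham, 0 in NYKD against ICH and 3 in NYKD against sham, and no filled point lies below zero.

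The comparison of NYKD with ICH asks what the decoction changed after the haemorrhage. No ribosomal protein gene was called in either direction by edgeR, DESeq2 or limma-voom, where 1.19% of all genes were raised and 2.27% lowered by edgeR. A single member, Rps27a, had an unadjusted p under 0.05. The log2 fold changes leaned below zero in 76 of 82 members, including all 34 of the small subunit. Of all genes, 48.8% were above zero. The median of the members was -0.16, against -0.01 for all genes. This lean rested on few libraries: the median was -0.03 without ICH replicate 2, -0.10 without ICH replicate 3, -0.09 without NYKD replicate 4 and -0.24 without ICH replicate 1. It was -0.0018 after fold changes were corrected for GC content and length of the transcript and -0.01 when libraries were scaled on the members alone. The ICH libraries enter this comparison and the preceding one, so a value that is high in them lowers this fold change and raises the other.

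Rps27a encodes ubiquitin fused to a small-subunit protein and lies at chr11:29545846-29548109 on the minus strand. It had 62.5, 62.3, 69.8, 49.6 and 59.2 CPM in NYKD libraries, 53.8, 219, 99.5, 87.8 and 153 CPM in ICH libraries, and 189.7, 62.1, 59.7, 47.2 and 129 CPM in sham libraries. The NYKD libraries lay close together, whereas the ICH and sham libraries each held values both within and far above the NYKD range. For NYKD against ICH the log2 difference was -1.02 ± 0.39, with an edgeR adjusted p of 0.132.

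Of the 6 members raised by ICH, 5 had fold changes below zero in NYKD against ICH, as had 76 of all 82 members. The 6 were called on the same ICH libraries. Their fold changes were -0.13 ± 0.26 for Rps27l, -0.40 ± 0.21 for Rpl17, -0.08 ± 0.14 for Rps4x, -0.18 ± 0.11 for Rpl29 and -0.29 ± 0.19 for Rps12. Rplp0 was at 0.09 ± 0.16. The edgeR adjusted p values of the 6 ran from 0.260 to 0.807. The large-subunit proteins Rpl12, Rpl27 and Rpl31 were also among the smallest p values, at log2 differences of -0.32 ± 0.16, -0.33 ± 0.19 and -0.32 ± 0.19 and adjusted p values of 0.243, 0.303 and 0.335. No member had all NYKD libraries above or all below the ICH libraries, as 2.55% and 5.25% of all genes did.

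Set against sham mice, NYKD mice show the state of the treated tissue. Rplp0, Rps27l and Rps4x were raised, 3 of 82 members where 15.3% of all genes were raised, and none was lowered where 8.08% of all genes were. Above zero were 52 of 82 members, against 48.0% of all genes. The median log2 fold change of the members was 0.07, against -0.02 for all genes. Without sham replicate 4 this median was -0.01, and it was 0.13 without sham replicate 1, 0.13 without NYKD replicate 4 and 0.14 without sham replicate 5. The sham libraries are shared with the ICH against sham comparison.

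Rplp0 had 358, 387, 426, 306 and 493 CPM in NYKD libraries, against the sham values of 198 to 336 CPM given above. NYKD replicate 4 lay below sham replicate 5, and the other NYKD libraries were above all sham libraries. The log2 fold change was 0.61 ± 0.16, with an edgeR adjusted p of 0.0135, and it passed in all 15 fits that left out a library.

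Rps27l had 21.8, 23.9, 24.3, 21.3 and 32.2 CPM in NYKD libraries, all above the highest sham library at 18.9 CPM. Its log2 fold change was 0.86 ± 0.26 (edgeR adjusted p of 0.0243). The call was lost without NYKD replicate 5 (0.0724) and without sham replicates 2, 4 or 5 (0.0515, 0.0630 and 0.0598).

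Rps4x had 345, 395, 372, 343 and 374 CPM in NYKD libraries, again all above the sham libraries, the highest of which was at 338 CPM. Its log2 fold change was 0.41 ± 0.14 (edgeR adjusted p of 0.0380). The adjusted p was 0.0519, 0.0841, 0.0783 and 0.0798 without NYKD replicates 1, 2, 3 and 5, and 0.0931, 0.0987 and 0.0973 without sham replicates 2, 3 and 4. Rplp0 alone was raised without NYKD replicate 5, without sham replicate 2 or without sham replicate 4.

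Rpl7l1, a nuclear relative of Rpl7, was the third member with all NYKD libraries above all sham libraries, as were 13.9% of all genes. No member had all NYKD libraries below all sham libraries, where 4.84% of all genes did. It had 51.7, 44.6, 54.4, 44.8 and 55.5 CPM in NYKD and 43.1, 39.9, 40.7, 36.9 and 41.4 CPM in sham libraries. With a log2 difference of 0.31 ± 0.12 its edgeR adjusted p was 0.0626, so it was not called.

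**Figure D3:**
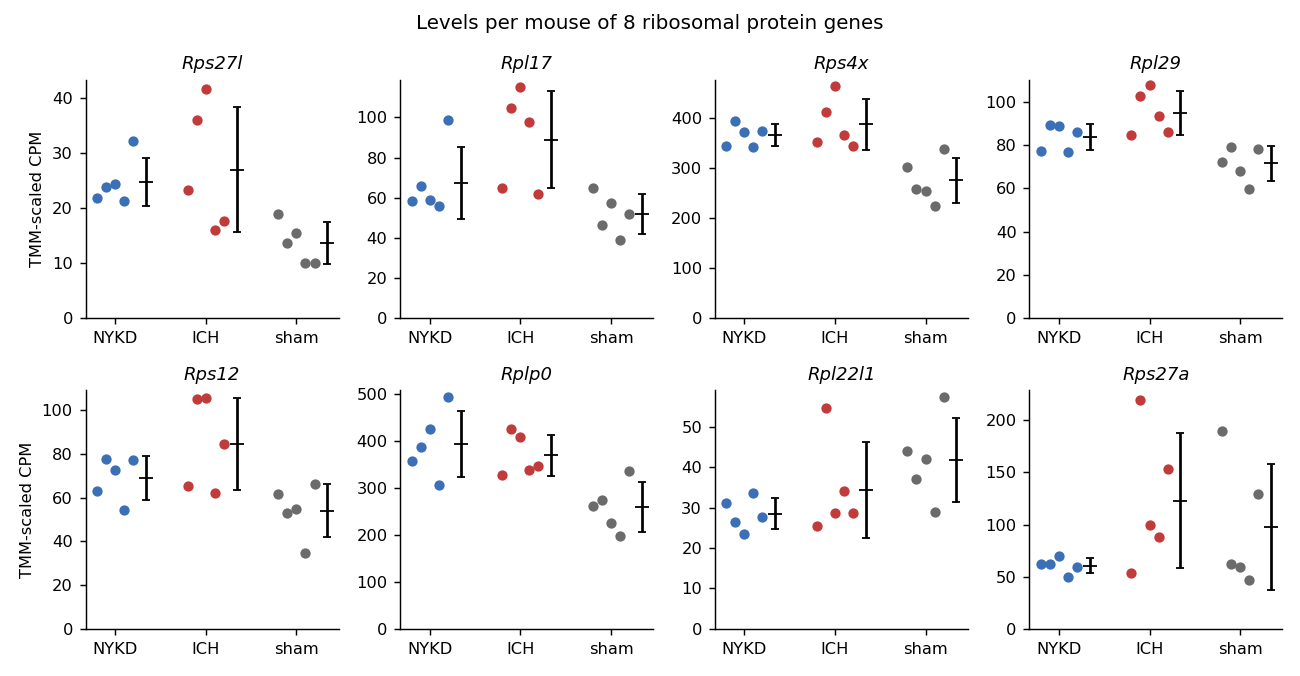
TMM-scaled CPM per mouse (points) of the 6 genes raised in ICH against sham and of Rpl22l1 and Rps27a, with the mean and SD of each group as a black bar (n = 5 each). Rps4x in NYKD and ICH lies above all sham values, and Rps27a spans 49.6 to 69.8 CPM in NYKD, 53.8 to 219 CPM in ICH and 47.2 to 190 CPM in sham mice.

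Some canonical proteins have a paralog that can take their place in the ribosome. Levels per kilobase of transcript were compared within pairs of related genes, without a test of the ratio. The pairs also include Rps4l, annotated as a pseudogene, and the nuclear relative Rpl7l1. Rpl22l1, the paralog of the RNA-binding protein Rpl22 (chr3:28805436-28807424 and chr4:152325742-152334071, both plus strand), had 31.1, 26.5, 23.6, 33.5 and 27.8 CPM in NYKD libraries. It had 25.6, 54.7, 28.7, 34.2 and 28.6 CPM in ICH libraries and 44.0, 37.0, 41.9, 29.0 and 57.2 CPM in sham libraries. Its NYKD against sham log2 difference was -0.55 ± 0.21, with an edgeR adjusted p of 0.0641, and its groups overlapped. Rpl22 itself averaged 123 ± 9.55 CPM in NYKD, 119.7 ± 24.7 CPM in ICH and 107 ± 23.8 CPM in sham libraries, with a log2 difference of 0.20 ± 0.16 between NYKD and sham.

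Per kilobase, Rpl22l1 stood at 87.5 ± 17.8% of Rpl22 in NYKD, 107 ± 26.4% in ICH and 145 ± 13.1% in sham libraries (SD, n = 5 each). The ratio ran from 64.4% to 108% in NYKD and from 133% to 165% in sham libraries, without overlap, while ICH libraries spanned 75.3% to 135%. Rpl22l1 passed as lowered in NYKD against sham in 5 of the 29 other settings: by DESeq2 (-0.57, adjusted p of 0.0391), in a fit of these 2 groups only (-0.54, 0.0242), with libraries scaled on the members alone (-0.59, 0.0331), without ICH replicate 2 (-0.55, 0.0260) and without sham replicate 4 (-0.66, 0.0369). It did not pass by limma-voom or after the correction for GC content and length of the transcript.

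For the other pairs the related gene had the lower level per kilobase in all libraries. Rps27l stood at 33.0 ± 11.3% of Rps27 per kilobase in NYKD, 26.7 ± 11.6% in ICH and 25.4 ± 11.6% in sham libraries. Rpl7l1 stood at 6.45 ± 0.91% of Rpl7 in NYKD, 5.72 ± 0.47% in ICH and 6.35 ± 0.88% in sham libraries. The ratio of Rps4l to Rps4x was 5.46 ± 1.36% in NYKD, 5.47 ± 0.97% in ICH and 6.63 ± 2.04% in sham libraries. Rpl39l, known from the testis, had 18, 17 and 8 counts in all over the NYKD, ICH and sham groups. The testis paralog Rpl10l had none in any library.

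Rpl3l, the paralog of Rpl3 known from striated muscle, was not a member but was tested. Its NYKD libraries had 0, 0.308, 0.192, 0.192 and 0 CPM, the ICH libraries 0.0639, 0.483, 0.767, 0.636 and 0.788 CPM, and the sham libraries 0.740, 1.31, 0.512, 0.526 and 0.523 CPM. All NYKD libraries were below all sham libraries, on 11 counts against 60 counts over the 5 libraries of each group. In NYKD against sham it fell by 2.35 on the log2 scale (SE 0.72, edgeR adjusted p of 0.0267), and the call was lost without NYKD replicates 1 or 5 (0.0547 and 0.0668) or sham replicate 2 (0.0787).

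Ribosomal protein genes have many retrotransposed copies in the genome, and reads can be counted on these instead of the gene. Parents were the protein-coding genes with a ribosomal protein symbol, members or not. By sequence match (at least 85% identity over at least 50% of the pseudogene's own length), 1519 annotated pseudogenes were assigned to a parent. Of these, 865 had counts and 112 had a mean above 1 CPM. Together they held 1372 CPM on average, against 14603 CPM in the members, or 8.59% of the sum of both.

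For 12 genes the copies held over 20% of that sum, and for 4 over 50%. Rps10, a member near the minimum at 2.30 CPM, had 38.2 CPM on copies, 35.6 CPM of it on Rps10-ps2, which is 98.992% identical. Its test therefore concerns a small part of the reads of this sequence family. Rpl24, excluded from the members by its level of 0.755 CPM, had 7.13 CPM on copies, mostly on Gm9385, or 90.4% of the sum. For Rpl17 the share was 73.2%, with 91.4 CPM on Rpl17-ps10 (99.279% identical) and 88.3 CPM on Rpl17-ps3 (99.640% identical). Rpl21 followed with 59.8%, Rpl7a with 45.6%, Rps29 with 44.8% and Rpl38 with 34.01%. For Rps29 nearly all of it lay on Gm14303, whose aligned part was identical to the gene.

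The copies did not all follow the gene. Rpl17-ps10 had 99.7, 112, 95.9, 69.0 and 96.6 CPM in ICH libraries and 95.9, 85.8, 84.1, 76.2 and 107.6 CPM in sham libraries, a log2 difference of 0.07 ± 0.17. Rpl17-ps3 had a log2 difference of 0.45 ± 0.17 (edgeR adjusted p of 0.0828) beside the 0.77 of Rpl17. When the counts of the copies were added to their parent, an alternative chosen after seeing the data, 6 members were again raised in ICH against sham, but Rpl17 was not among them (0.39, adjusted p of 0.0712) and Rpl7a was (0.69, adjusted p of 0.0351). How the reads that match several places were assigned is not given in the sources used here.

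**Figure D4:**
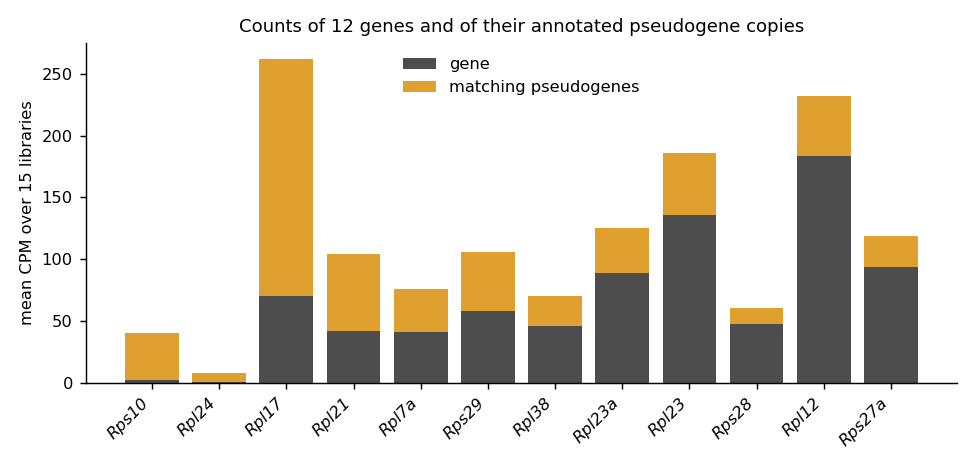
Mean CPM over the 15 libraries (vertical axis) counted on 12 genes (dark) and on their matching pseudogenes (yellow), ordered by the share on copies. For each, copies held over 20% of the CPM of gene and copies together. This share is 94.3% for Rps10 and 90.4% for Rpl24, and Rpl17 has 191.8 CPM on copies beside 70.1 CPM on the gene.

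Overlap with other annotated genes passed 20% of the exonic bases in 3 genes. Read-through or overlapping genes on the same strand share 47.0% of the exonic bases of Rpl24 (Gm28037), 35.4% of those of Rpl13a (mainly Gm45713) and 20.6% of those of Rps10 (RPS10-NUDT3). These 3 overlapping genes had no count in any library. The part of copies and of shared exons in the low levels of Rps10 and Rpl24 was not tested.

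The rest of the translation apparatus was read from lists. Of 20 TOP mRNAs that do not code for ribosomal proteins, Pabpc1, the poly(A)-binding protein, was raised in ICH against sham and no other was called. In this comparison 12.4% of all genes were raised. Pabpc1 averaged 401 ± 53.2 CPM in NYKD, 347 ± 68.6 CPM in ICH and 192 ± 9.96 CPM in sham libraries. Its log2 fold change was 0.85 ± 0.14 in ICH against sham (edgeR adjusted p of 8.17e-04) and 1.06 ± 0.14 in NYKD against sham (adjusted p of 8.0e-05). The medians of this list were 0.18 in ICH against sham, -0.05 in NYKD against ICH and 0.14 in NYKD against sham.

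Rack1 and Fau, ribosomal proteins outside the symbol rule, were not called in any comparison. Rack1, a scaffold on the small subunit, averaged 289 ± 32.9 CPM in NYKD, 278 ± 48.9 CPM in ICH and 227 ± 49.2 CPM in sham libraries. Rpl36al, also outside the rule, was not tested.

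Among 35 genes of ribosome biogenesis, Ddx21, a nucleolar helicase, and Gnl3 (nucleostemin) rose in ICH against sham, by 0.53 ± 0.12 and 0.67 ± 0.22 on the log2 scale (edgeR adjusted p of 0.00712 and 0.0478). The call of Gnl3 was lost in 13 of the 15 fits that left out a library, all but those without ICH replicate 5 or sham replicate 1 (adjusted p of 0.0568 to 0.105). None was called in NYKD against ICH. In NYKD against sham Ddx21 rose by 0.90 ± 0.12, and Rrp9, a protein of the U3 particle, fell by 0.69 on the log2 scale (SE 0.20). Of all genes, 12.4% rose in ICH against sham, and 15.3% rose and 8.08% fell in NYKD against sham. The list medians were 0.10 in ICH against sham, -0.09 in NYKD against ICH and 0.05 in NYKD against sham.

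Of 39 translation factors, Eif3a and Eif4a1 rose and Eef1a2, the elongation factor isoform of neurons and muscle, fell in ICH against sham. In this comparison 12.4% of all genes rose and 4.58% fell. The call of Eif4a1 was lost in 12 of the 15 fits that left out a library, all but those without NYKD replicate 5 or ICH replicates 1 or 5 (adjusted p of 0.0504 to 0.111). Eef1a2 averaged 520 ± 79.2 CPM in ICH and 849 ± 172 CPM in sham libraries. In NYKD against sham 8 of the 39 rose, where 15.3% of all genes did, and Eef1a2 alone fell, where 8.08% did. In NYKD against ICH none was called. Eif4g1, the scaffold of the cap-binding complex, averaged 381 ± 35.1 CPM in NYKD and 285 ± 21.7 CPM in ICH libraries (log2 difference of 0.42 ± 0.11, edgeR adjusted p of 0.0525). It averaged 265 ± 19.1 CPM in sham libraries, against which it rose by 0.52 ± 0.11 in NYKD.

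Of the 14 genes of mTOR and TOP regulation, 2 were raised in NYKD against ICH, where 1.19% of all genes were, and the other lists had none. Larp1, which binds the TOP tract, averaged 168 ± 15.4 CPM in NYKD, 116 ± 11.04 CPM in ICH and 122 ± 9.84 CPM in sham libraries. Its log2 fold change was 0.54 ± 0.11 in NYKD against ICH (edgeR adjusted p of 0.0315). Rptor, a subunit of the mTOR complex that acts on translation, averaged 93.6 ± 6.504 CPM in NYKD and 66.0 ± 10.1 CPM in ICH libraries (0.50 ± 0.13, adjusted p of 0.0409). Both calls hung on single libraries. Larp1 was lost in 6 of the 15 fits that left out a library, those without NYKD replicates 1, 3, 4 or 5 or ICH replicates 4 or 5 (adjusted p of 0.0590 to 0.0877). Rptor was lost in 11 of the 15, those without any NYKD library, ICH replicates 2 to 5 or sham replicates 2 or 3 (adjusted p of 0.0514 to 0.0957). Eif4ebp1, a repressor of cap-dependent translation, and the transcription factor Myc rose in ICH against sham by 2.05 ± 0.33 and 1.46 ± 0.19. They were 2 of 14, where 12.4% of all genes rose. In NYKD against sham Eif4ebp1, Eif4ebp2, Larp1 and Myc rose, 4 of 14, where 15.3% of all genes rose.

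The mitochondrial ribosomal protein genes, which build a separate ribosome, were mostly below zero. Of 77 tested, 2 rose and 2 fell in ICH against sham, where 12.4% and 4.58% of all genes did. In NYKD against ICH 0 rose and 1 fell, where 1.19% and 2.27% of all genes did. In NYKD against sham 1 rose and 4 fell, where 15.3% and 8.08% of all genes did. The medians of the mitochondrial list were -0.07, -0.12 and -0.19 in these 3 comparisons. Mrps6 had the largest change, at 1.45 ± 0.25 in ICH against sham (edgeR adjusted p of 0.00106) and 0.93 ± 0.25 in NYKD against sham.

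Summed marker mRNA differed between the groups for several cell types, with overlapping ranges for some, and does not give cell numbers. In ICH against sham 12.4% of all genes were raised and 4.58% lowered. Monocyte and macrophage markers summed to 713 to 1736 CPM in NYKD, 282 to 1320 CPM in ICH and 17.6 to 186 CPM in sham libraries, and 5 of 5 tested were raised in ICH against sham. Markers of dividing cells summed to 227 to 402 CPM in NYKD, 42.6 to 469 CPM in ICH and 20.4 to 46.9 CPM in sham libraries, with 5 of 5 raised. Neuronal markers summed to 1406 to 3706 CPM in NYKD, 1845 to 2252 CPM in ICH and 2662 to 3505 CPM in sham libraries, with Syp lowered in ICH. Microglial markers were at 531 to 1060 CPM in NYKD, 408 to 772 CPM in ICH and 326 to 418 CPM in sham libraries, with 3 of 5 raised in ICH against sham. Neutrophil markers were at 43.9 to 74.8 CPM in NYKD libraries, at 545 CPM in ICH replicate 4 and 45.8 to 53.7 CPM in the other ICH libraries, and at 9.88 to 26.1 CPM in sham libraries. Endothelial markers were at 257 to 371 CPM in NYKD, 225 to 294 CPM in ICH and 152 to 195 CPM in sham libraries, and 3 of 4 were raised in ICH against sham. In that comparison Gfap of the 4 astrocyte markers was raised and Aldoc lowered, Hbb-bt of the 5 erythroid markers was lowered, and none of the oligodendrocyte, lymphocyte, choroid plexus or striatal markers was called. Each of these markers had counts, but 1 alone of the 6 lymphocyte markers had enough to be tested. The lymphocyte sums were 0.472 to 1.47 CPM in NYKD, 0.575 to 1.77 CPM in ICH and 0.384 to 2.67 CPM in sham libraries. ICH replicate 2, the highest library of the ribosomal protein genes, had the highest microglial (772 CPM) and oligodendrocyte (11193 CPM) sums and the lowest neuronal sum (1845 CPM) of the ICH group, and was inside the ICH range for monocytes and macrophages (670 CPM). Sham replicate 4, the lowest library of these genes, had the highest microglial (418 CPM), endothelial (195 CPM) and dividing-cell (46.9 CPM) sums of the sham group, and was inside the sham range for monocytes and macrophages (115 CPM). The part of these cells in the ribosomal protein levels was not tested.

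The deviation of genes by transcript length differed between the libraries. Across the tested genes with a mean log2 level above 1, the deviation per doubling of transcript length was -0.175 on the log2 scale in ICH replicate 2 and 0.108 in sham replicate 4, and 0.0503 to 0.0922 in the NYKD libraries. It was -0.116 in sham replicate 1 and 0.0306 in sham replicate 5, where the median deviations of the family were 0.08 and 0.22. Per 10% of GC content the deviation ran from -0.309 in ICH replicate 3 to 0.183 in ICH replicate 4. Ribosomal protein transcripts are short, and whether length or GC content set the levels of the family was not tested. With a correction for GC content and length, the median of the members was 0.16 in ICH against sham, -0.0018 in NYKD against ICH and 0.13 in NYKD against sham, and 7 members were raised in NYKD against sham in place of 3: Rps4x, Rplp0, Rps27l, Rpl10a, Rps26, Rpl29 and Rps12.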

How the data were processed

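Poly-A RNA was measured in 1 library per mouse. Counts are deposited per Ensembl gene and are raw, as their whole numbers and unequal totals show. Per the submitters' processing notes, the authors used HISAT2 2.0.5, edgeR 3.22.5 and mm10, with no step tied to each. Strandedness, annotation release and the counting tool are not given in those notes or labels.

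Symbols and coordinates came from GENCODE M21 (GRCm38, the mm10 build), which matched 54495 of 54532 genes. Titles gave the groups. Counts passed through filterByExpr, were scaled by TMM and fitted for all 15 libraries in 1 edgeR 4.0.16 model (R 4.3.3, robust quasi-likelihood F-test), and p values were adjusted by Benjamini-Hochberg over 18052 genes. Genes were called at an adjusted p under 0.05. SEs are approximate, being derived from each fold change and its F statistic. Pseudogenes were matched with BLAST 2.17.0. The p values judge a difference between groups against the spread between mice, estimated over all 15 libraries.

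The members, gene lists and tests were chosen with earlier results of these data known. Named members were the 8 with the smallest p per comparison, a fixed set, the paralog pairs, the 3 highest and the 3 lowest in level; those outside it, such as Rps26, Rps29 and Rpl21, were named after their values were seen. Some genes of the lists are not reported here. Alternatives were RLE factors, library totals, TMM without the members, 2 other count filters, DESeq2 1.42.0, limma-voom (limma 3.58.1), 2 groups only, a replicate block, a GC and length correction (splines with 5 degrees of freedom), an adjusted p under 0.01, and each library left out. Replicate numbers in the titles were not stated to pair mice.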

Additional observations from a re-analysis of the deposited data

Results flagged for a closer look

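In 10 of 105 groups of 5 libraries checked, the highest or lowest library stood apart by Dixon's criterion, which chance gives in about 1 of 20 groups. In NYKD libraries, replicate 5 was highest for Rps27l, at 32.2 CPM where the next library had 24.3 CPM, and for Rpl17, at 99.0 CPM where the next had 65.7 CPM. NYKD replicate 4 was lowest for both acidic stalk proteins, with 293 CPM of Rplp1 (next 357 CPM) and 59.1 CPM of Rplp2 (next 90.9 CPM), and highest for Rps4l at 26.0 CPM (next 18.4 CPM).

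In sham libraries, replicate 5 was highest for Rps27, at 139 CPM where the next had 40.1 CPM, and for Rpl3, at 811 CPM where the next had 508 CPM. Sham replicate 1 stood apart for Rpl7a, at 60.4 CPM where the next had 23.5 CPM. Sham replicate 4 was lowest for Rpl12, at 131 CPM where the next had 174 CPM, and sham replicate 2 was highest for Rpl3l at 1.31 CPM. No ICH library was set apart in this way.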

How the results depend on the processing

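The count of members raised in ICH against sham, 6, was 0 at an adjusted p under 0.01, 12 with library totals, 3 with no count filter, 2 in a fit of 2 groups only and 0 with TMM over the members alone. It ran from 1 to 8 when single libraries were left out, with a median of 0.11 to 0.30. In NYKD against ICH the counts were 0 in all settings, with a median of -0.24 to -0.03 without single libraries. In NYKD against sham the 3 raised became 0 at an adjusted p under 0.01 and 7 with the GC and length correction, with or without the replicate block. There, 1 member was lowered by DESeq2, with 2 groups only and with TMM over the members alone. Without single libraries 1 to 3 were raised and 0 to 1 lowered, with a median of -0.01 to 0.14.

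With the replicate block, 6 members were raised in ICH against sham, 0 called in NYKD against ICH and 2 raised in NYKD against sham. Same-numbered mice did not deviate together (correlations from -0.31 to 0.24), so the numbers were not taken as pairs. Scaling by library totals moved the median of all genes in ICH against sham to 0.14, against 0.05 with TMM, and that of the members to 0.33. Over all genes, NYKD against ICH counts were 0 to 725 raised and 0 to 1005 lowered when single libraries were left out. The cause of these differences was not tested, other than the fewer samples or stricter thresholds that define some settings. Depth of 13539203 to 19909140 counts limits members near 1 CPM, such as Rps3a2 and Rps10.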
